A study of Mus musculus with 4 samples.

Results

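The 9 genes described here are the receptors for the constant part of IgG (Fcgr1, Fcgr2b, Fcgr3 and Fcgr4), their shared signalling chain Fcer1g, and 4 genes of efferocytosis, the uptake of dying cells: the receptor Mertk, its bridging ligand Gas6, and the receptors Timd4 and Stab1. They were chosen by symbol, with no measured value in the rule, and all 9 were found among the 53647 genes of the count tables. Droplet single-cell RNA sequencing had been done on spinal cord of aged mice of the inbred C57BL/6J strain, in 4 libraries of the 2 mm segment that held the lesion, 28 days after injury. Mice had received IgG (libraries IgG 1 and IgG 2) or Anti-CD8 (libraries Anti-CD8 1 and Anti-CD8 2), an antibody to the co-receptor of cytotoxic T cells, and values for single libraries are given in that order. All animals were aged and injured, so no comparison with uninjured or young cord is made. Each group has 2 biological replicates by its labels, which do not say how many mice a library holds, so a p-value measures the spread between these libraries. Both groups received an antibody, which is itself a possible ligand of Fc receptors.

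Activating Fc gamma receptors (Fcgr1, Fcgr3 and Fcgr4 in the mouse) bind IgG on coated targets and signal through the immunoreceptor tyrosine-based activation motif (ITAM) of Fcer1g, whereas Fcgr2b carries an inhibitory motif in its own tail. Efferocytosis begins with recognition of phosphatidylserine on the dying cell. Mertk, a receptor tyrosine kinase of the Tyro3, Axl and Mertk (TAM) family, does so through Gas6 or protein S, Timd4 binds the lipid directly, and stabilin-1, the product of Stab1, is a scavenger receptor of tissue macrophages and endothelium. In injured cord, microglia and infiltrating and border macrophages take up debris.

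Promoters of Fcgr1 and Fcgr4 are shown first, because these genes stood highest among microglia in the interferon-led cluster described below. Each sequence is the 200 bases before the RefSeq start site on build GRCm38.p6, 5′ to 3′ on the gene's strand, and capitals mark the motifs named after them. The count tables were made on build GRCm39, so the positions are those of RefSeq and were not applied to the data.
Fcgr1, chr3:96293970-96294169, minus strand: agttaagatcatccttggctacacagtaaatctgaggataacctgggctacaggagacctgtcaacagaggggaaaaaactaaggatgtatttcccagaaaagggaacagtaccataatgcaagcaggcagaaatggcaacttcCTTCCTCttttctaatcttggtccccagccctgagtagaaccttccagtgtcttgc
Fcgr4, chr1:171018726-171018925, plus strand: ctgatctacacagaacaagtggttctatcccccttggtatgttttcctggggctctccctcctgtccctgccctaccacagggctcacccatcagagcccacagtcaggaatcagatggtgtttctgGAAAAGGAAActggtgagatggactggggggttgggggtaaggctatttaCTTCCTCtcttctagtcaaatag

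The Fcgr4 window held GAAANNGAAA, the core of the interferon-stimulated response element, beginning 73 bases before the start. Of 32851 RefSeq promoter windows of 300 bases, 3.44% held those letters on either strand. All 9 genes matched a RefSeq promoter, and the other 8, Fcgr1 among them, did not hold that motif. GAGGAAG, a form of the site of the myeloid factor PU.1, occurred on the opposite strand, where it reads CTTCCTC, in the Fcgr1 window 56 bases and in the Fcgr4 window 23 bases before the start. It also occurred for Fcgr3, and in 13.6% of all windows. Both motifs lie apart in the Fcgr4 window. These matches describe letters, and no binding was measured.

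After filtering, 27695 cells remained, with 6108 to 7816 per library and a median of 17284 to 21950 UMIs per cell. Libraries held 152457679 to 170539226 UMIs in all. Between 5 and 16 cell barcodes were shared by any pair of libraries, and the counts of each pair differed beyond sampling noise. Cells were grouped without use of the 9 genes and named by markers: microglia (12960 cells), Spp1-high phagocytes (3700), monocytes and macrophages (1653, called macrophages below), dendritic cells (134), NK cells (192), T cells (1528) and non-immune classes. Dendritic cells numbered 17, 29, 56 and 32 in the 4 libraries, and NK cells 9, 27, 62 and 94, so single values there rest on little. The 10 dendritic markers summed to 1946, 1540, 1806 and 2289 CPM (a gene's UMIs scaled to the total of its class and library) in dendritic cells and to 201 to 232 CPM in microglia.

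Fcer1g was the most abundant of the 9 genes in each myeloid class and in NK cells. Its level in microglia was 2195 and 2143 CPM under IgG, and 2206 and 2134 CPM under Anti-CD8. Spp1-high phagocytes held 2525 ± 82.4 CPM and macrophages 2078 ± 68.9 CPM (SD, n = 4 libraries). Among the receptors, Fcgr3 led in all 3 of these classes, at 472 ± 17.1 CPM in microglia, 356 ± 10.9 in Spp1-high phagocytes and 339 ± 14.1 in macrophages (SD, n = 4). The libraries are tag counts, with 1 tag per RNA molecule, in which gene length has little part. Capture may still differ between genes.

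Fcgr1, the high-affinity receptor, was higher in microglia than in the other phagocytes when each class was taken as a whole. Microglia held 223 and 171 CPM under IgG, and 180.5 and 171 CPM under Anti-CD8. Spp1-high phagocytes held 104 to 115 CPM and macrophages 112 to 126 CPM, and no library of either reached the lowest microglial one. Groups within the classes did not keep this order. Macrophages led by Ifit3 and Ifit2 held 168 to 232 CPM and those led by Ccl8 and Mrc1 153 to 284 CPM. Microglia led by Il12b, Lpl and Cxcl2 held 140 ± 8.29 CPM (SD, n = 4). Fcgr2b, the inhibitory receptor, was highest in macrophages, which held 199, 198, 216 and 224 CPM against 117, 121, 132 and 124 CPM in microglia. The macrophage level was 1.63 to 1.81 times the microglial one within the 4 libraries. Fcgr4 was the least abundant of the 4 Fc receptors, at 21.7 ± 1.94 CPM in microglia, 17.3 ± 1.73 in Spp1-high phagocytes and 22.6 ± 2.26 in macrophages (SD, n = 4), and microglia and macrophages did not differ beyond their spread.

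Mertk was 267, 259, 267 and 240.2 CPM in microglia as a whole, above the 189 to 199 CPM of Spp1-high phagocytes and the 176 to 209 CPM of macrophages. The macrophages led by Ifit3 and Ifit2 held 248 to 310 CPM. Gas6, the ligand of Mertk, ran the other way between microglia and Spp1-high phagocytes. It was 134, 115, 119.7 and 94.97 CPM in Spp1-high phagocytes against 65.2, 78.1, 70.3 and 59.4 CPM in microglia, a ratio of 1.47 to 2.06. Stab1 was highest in macrophages, at 81.4, 92.6, 119.6 and 73.6 CPM, or 2.102 to 2.88 times the microglial level in the same library.

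**Figure D1:**
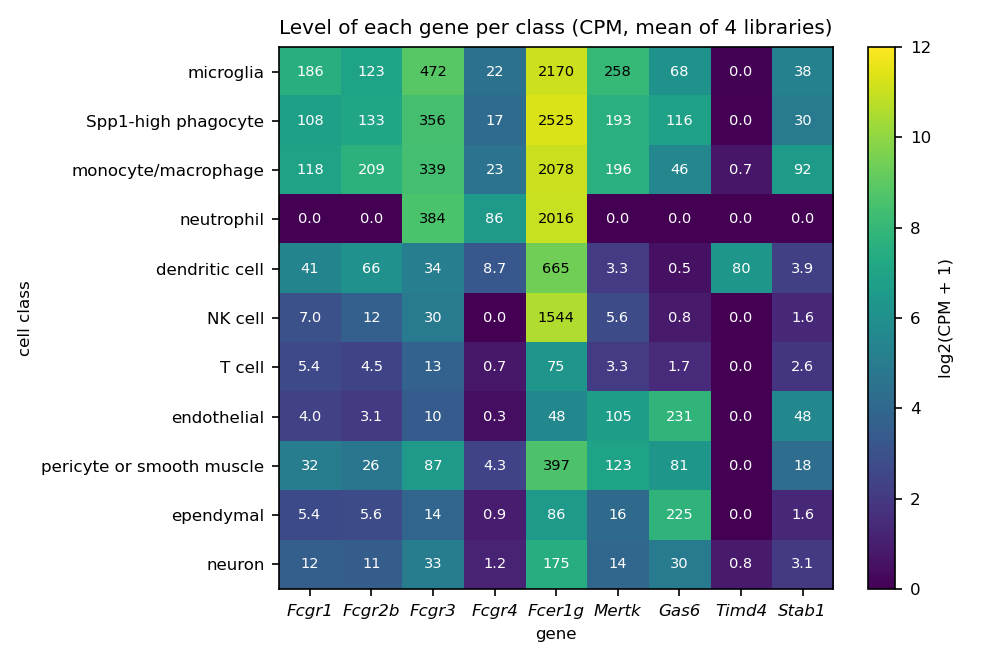
Level of each gene (columns) in each cell class (rows); the colour is log2(CPM + 1) and the printed number the mean CPM of 4 libraries. Fcer1g is high in myeloid, NK and neutrophil rows, the mean of Timd4 is 79.9 CPM in dendritic cells and under 1 CPM in every other row, and Gas6 is highest in endothelial and ependymal cells.

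The sum of activating receptor UMIs over Fcgr2b UMIs put the 3 phagocyte classes in one order in every library. In microglia the ratio was 6.06, 5.39, 5.303 and 5.33. In Spp1-high phagocytes it was 3.83, 3.57, 3.69 and 3.41, and in macrophages 2.34, 2.39, 2.28 and 2.196, and the 3 ranges of whole classes did not overlap. Groups within the classes did not all keep this order. The ratio was 2.54 to 3.21 in macrophages led by Ifit3 and Ifit2. In Spp1-high phagocytes led by Atp6v0d2 and Gpnmb it was 2.94 to 3.16. Between antibodies, log2 of the ratio differed by -0.10 (Anti-CD8 minus IgG) in microglia, -0.06 in Spp1-high phagocytes and -0.08 in macrophages. An exact two-sided permutation test cannot go below p = 0.3333 with 2 against 2 libraries, and gave 0.3333, 0.6667 and 0.3333.

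In dendritic cells, both Anti-CD8 libraries had lower ratios than both IgG libraries. Their activating over inhibitory UMIs were 52 over 26, 29 over 14, 40 over 59 and 25 over 41, which gives 2, 2.07, 0.678 and 0.6098. The groups did not overlap, the log2 difference was -1.66, and the exact permutation p was 0.3333, the smallest possible. The makeup of these cells differed too. Those led by Xcr1 and Clec9a, genes of cross-presenting dendritic cells, were 29.4% and 0% of them under IgG and 35.7% and 28.1% under Anti-CD8, and over all libraries held Fcgr2b at 63.5 CPM and Fcgr3 at 7.74 CPM, on 5 UMIs. The groups overlapped on that share, with IgG 1 above Anti-CD8 2. Dendritic cells led by Gda, Xylt1, Clec4b1 and Mrc1 were 47.1% and 20.7% under IgG and 26.8% and 28.1% under Anti-CD8. They held Fcgr2b at 133 CPM and Fcgr3 at 78.2 CPM over all libraries. Dendritic cells led by Ccl22 and Timd4 were 0% and 51.7% under IgG and 10.7% and 12.5% under Anti-CD8. The part of this makeup in the ratio was not tested.

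**Figure D2:**
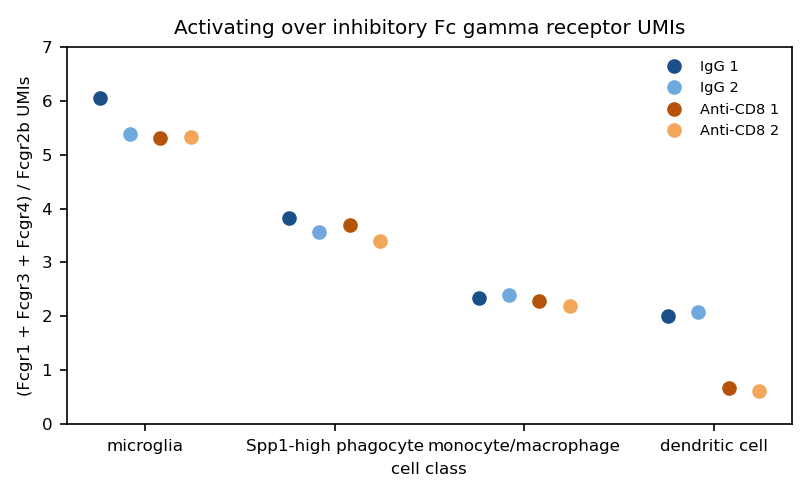
UMIs of the activating receptors Fcgr1, Fcgr3 and Fcgr4 summed and divided by UMIs of Fcgr2b, 1 point per library in each of 4 cell classes. Microglia sit between 5.30 and 6.06, macrophages between 2.20 and 2.39, and dendritic cells split by antibody on few UMIs.

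Within microglia, Fcgr1 and Fcgr4 stood highest in the cluster led by the interferon-induced genes Ifit3, Ifit2 and Cxcl10. Fcgr1 there was 491, 362, 434 and 351 CPM, which is 2.14 to 2.79 times the other microglia of the same library. Fcgr4 was 53.1, 49.6, 38.5 and 58.6 CPM, or 1.73 to 3.08 times. The other activating receptor and the signalling chain were near the level of other microglia, with ratios of 0.864 to 1.01 for Fcgr3 and 0.998 to 1.16 for Fcer1g. Mertk stood at 1.11 to 1.297 times and Fcgr2b at 1.11 to 1.27 times. Ratios between clusters describe groups made from the same cells and carry no test.

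Macrophages had an interferon-led group of their own, with 212 cells led by Ifit3, Ifit2 and Irf7. Fcgr1 was 1.56 to 2.29 times that of other macrophages, Stab1 1.45 to 2.18 times and Mertk 1.29 to 1.64 times. Fcgr4 ranged from 0.525 to 1.402 times and so had no one direction.

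The interferon-led microglia were unequally spread over libraries. IgG 1 had 485 of them among 3070 microglia (15.8%), and the other libraries 86, 66 and 126 (3.14%, 1.96% and 3.32%). Without these cells, microglial Fcgr1 was 176 and 165 CPM under IgG, and 176 and 164 CPM under Anti-CD8, and IgG 1 no longer stood above the rest. Fcgr4 in IgG 1 was 24.1 CPM with them and 18.99 CPM without.

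Mertk and Fcer1g differed in opposite directions between the microglia led by Siglech and P2ry12 and those led by Il12b and Cxcl2. Mertk was highest in the clusters led by Ptchd1 and by Siglech and P2ry12, genes of resting microglia, at 442 ± 29.2 and 412 ± 22.00 CPM (SD, n = 4), neighbours whose ranges over the libraries overlap. The chemokine gene Cxcl13 came next among the leading genes of the Siglech- and P2ry12-led cluster. Interferon-led microglia held 310 ± 30.5 CPM, and the largest microglial cluster, led by Siglech and Ccl3, 287 ± 26.0 CPM. Clusters led by Il12b and Olr1 with Il1b or Il1a held 228 ± 11.1 and 206 ± 16.7 CPM. Microglia led by Il12b, Lpl and Cxcl2 held 140.0 to 160.2 CPM. Fcer1g was 2442 to 2626 CPM in those Il12b- and Cxcl2-led cells and 1876 to 1982 CPM in the Siglech- and P2ry12-led cluster, 0.755 to 0.777 times as much. Fcgr3 was highest in the cluster led by Il12b, Olr1 and Il1b, at 589.5 ± 26.9 CPM, with the Siglech- and P2ry12-led cluster next at 553 ± 35.2 CPM (SD, n = 4), and the ranges of both over the libraries overlap.

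Among whole myeloid clusters, not divided into subclusters, Gas6 was highest in the Spp1-high phagocytes led by Atp6v0d2 and Gpnmb, genes of lysosome-rich phagocytes. It was 166 and 136 CPM under IgG, and 134 and 107 CPM under Anti-CD8 there. In each library that was 1.96 to 3.48 times the level of the largest microglial cluster, which Siglech led, while Fcgr1 was 0.476 to 0.501 times. An unnamed cluster of 1041 cells had the highest Fcer1g (3470 CPM) and little Mertk (59.1 CPM). Its depth was 0.164 times that of its libraries, and Malat1, a nuclear RNA, was 1577 CPM there against 10336 CPM in the largest microglial cluster. The part of depth and nuclear RNA in those levels was not tested.

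**Figure D3:**
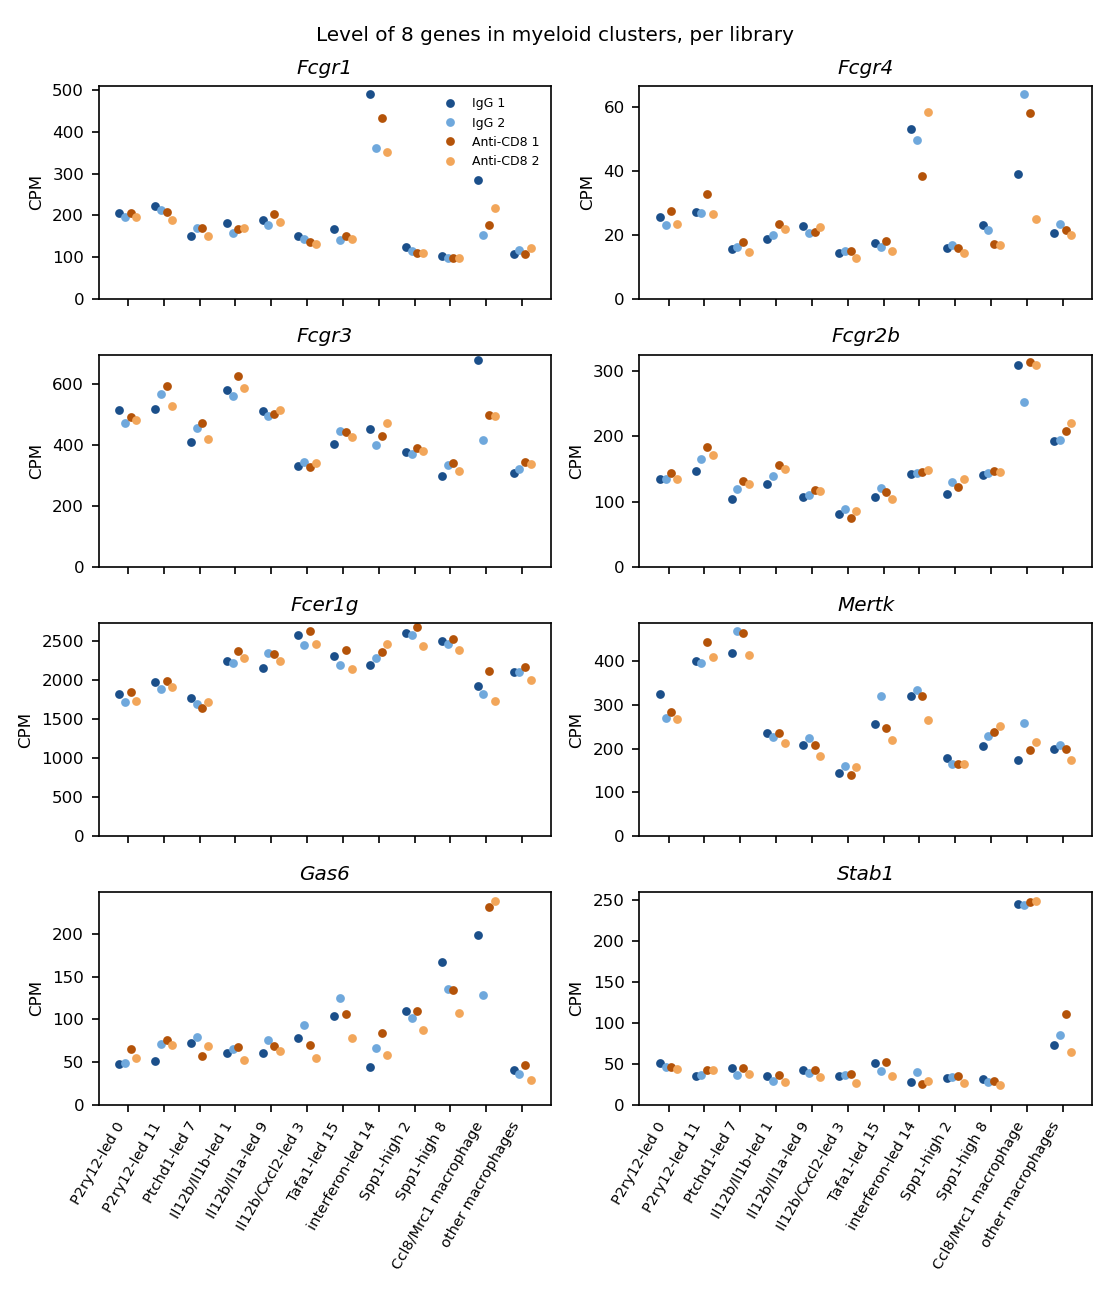
CPM of 8 of the genes (panels) in 12 myeloid clusters or subclusters, 1 point per library; the y axes start at 0. Fcgr1 peaks in the interferon-led microglia, at 351 to 491 CPM, and Stab1 in the Ccl8- and Mrc1-led macrophages.

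Stab1 and Gas6 were high together in one group of macrophages. These 156 cells were led by Ccl8, Pf4, Mrc1 (the mannose receptor) and Cd163, genes of border macrophages. Stab1 there was 245 to 249 CPM, alike in the 4 libraries, and 2.24 to 3.85 times the 73.6, 85.7, 111 and 64.6 CPM of other macrophages. Gas6 was 199, 128, 231 and 238 CPM, against 28.7 to 46.1 CPM in other macrophages. Fc gamma receptors were also higher there than in other macrophages in each library, Fcgr1 at 1.31 to 2.63 times, Fcgr2b at 1.298 to 1.597 times, Fcgr3 at 1.29 to 2.18 times and Fcgr4, on 11 to 27 UMIs per library, at 1.27 to 2.74 times. Fcer1g was 0.862 to 0.978 times, slightly below other macrophages in each library.

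Macrophages led by Mfge8, a bridge to phosphatidylserine, and Fabp4, a lipid carrier, held Stab1 at 13.3 to 22.6 CPM, below every library of macrophages as a whole. Fcgr1 there was 46.5 to 69.99 CPM, while Mertk, at 199.9 to 250.2 CPM, overlapped the macrophages as a whole.

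Timd4 was mostly found in dendritic cells. It had 240 UMIs in 56 of 27695 cells, and 174 of those UMIs (72.5%) were in 27 of the 134 dendritic cells. The dendritic level was 45.8 and 116 CPM under IgG, and 61.1 and 97.3 CPM under Anti-CD8, from 2, 10, 7 and 8 positive cells. Flt3, the growth factor receptor of the dendritic lineage, had a UMI in 24 of the 27, against 80 of the 107 dendritic cells without Timd4. Zbtb46 was found in 70.4% of cells with Timd4 and 67.3% without, Cd209a in 48.1% and 46.7%, and Ccr7 in 44.4% and 35.5%. Xcr1 and Clec9a went the other way, at 14.8% and 25.9% with Timd4 against 30.8% and 45.8% without. None of the 27 had Cd79a, a B-cell gene that the selection of these cells had limited. The 25 dendritic cells led by Ccl22 and Timd4 held 275 CPM, and the 28 led by Ly6d, Siglech and Ccr9, genes of plasmacytoid cells, 102 CPM. In the plasmacytoid-type group 34 of the 42 UMIs came from the 6 cells of Anti-CD8 2, and the level without that library was 24.9 CPM.

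Timd4 is a textbook marker of resident macrophages in other tissues. Cord macrophages had 21 UMIs in 11 of 1653 cells, 14 of them in the Ccl8- and Mrc1-led group. Microglia had 11 UMIs in 10 of 12960 cells. A single neuron of IgG 2 had 14 UMIs, and 2 of the 12 cells of the dendritic cluster set apart for microglial RNA had 15. No UMI was seen in 1528 T cells, 192 NK cells or 1676 endothelial cells.

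NK cells were the lymphoid class with most Fcer1g, a level that microglia exceeded 1.35 to 1.46 times within a library. It was 1541 and 1467 CPM under IgG, and 1581 and 1586 CPM under Anti-CD8, 17.5 to 26.7 times the 88.01, 54.9, 71.2 and 84.5 CPM of T cells. A UMI was found in 77.8, 100, 91.9 and 96.8% of NK cells, and in 77.8, 70.4, 88.5 and 91.4% when every cell was thinned to 2000 UMIs, which left out 2 NK cells. T cells, at similar depth (a median of 6181 to 7302 UMIs, against 7606 to 9326 in NK cells), had 36.3, 27.7, 27.3 and 34.1% unthinned and 13.4, 8.62, 10.9 and 14.7% thinned.

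Free RNA in the droplets was gauged with the 3 C1q genes, which microglia and macrophages make. If all C1q UMIs in NK cells came from microglia of the same library, 104 Fcer1g UMIs would have come with them, and 2679 were seen. For Fcgr3, the receptor with which NK cells recognise coated targets, 22.9 would have come and 65 were seen. It was found in 0, 6, 19 and 21 NK cells, or 0, 22.2, 30.6 and 22.3%. The 3 shares above 0 have exact (Clopper-Pearson) 95% intervals of 8.62 to 42.3%, 19.6 to 43.7% and 14.4 to 32.1%. The 0 of 9 cells, taken as under 3 counts, allows a share of cells with a UMI of up to 33.3%, and intervals and this limit cover counting error only. T cells, which should lack Fcgr3, had 8.17, 5.16, 5.79 and 10.9%, and their 126 UMIs stood beside 136 from the gauge. After thinning, the shares were 0, 7.41, 8.197 and 6.45% in NK cells and 0.984, 1.097, 1.11 and 4.13% in T cells. Cd247, the zeta chain of the T-cell receptor complex, averaged 49.9 CPM in NK cells and 254 CPM in T cells.

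Cells of the NK cluster with more than 1 UMI of the T-cell genes Cd3e, Cd3d and Trac (8, 22, 13 and 29 cells) also had Fcer1g, at 216, 748, 753 and 1406 CPM. Neutrophils were 16 cells with 41 UMIs of Fcgr3, 12 of Fcgr4 and 219 of Fcer1g, and none of the other 6 genes.

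Outside the immune cells, Gas6 was 249, 196, 252 and 228 CPM in endothelial cells and 182, 276, 234 and 209.8 CPM in ependymal cells, above every library of microglia, macrophages and Spp1-high phagocytes. Endothelial Mertk was 105 ± 13.1 CPM and Stab1 47.8 ± 6.19 CPM (SD, n = 4). The C1q gauge gives 165 Mertk and 24.1 Stab1 UMIs in these cells, and 3226 and 1469 were seen. Among the other TAM genes, the receptor Axl averaged 223 CPM in microglia and 181 CPM in macrophages, and Tyro3 0.0248 and 0.0605 CPM. Pros1, which codes for protein S, averaged 149 CPM in microglia, 40.8 CPM in macrophages and 419.6 CPM in ependymal cells.

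Likeness between genes was measured over 27 clusters of at least 50 cells, as Pearson's r of log2(CPM + 1). Genes most like Fcgr1 were Aif1, Csf1r and Ctss (0.988, 0.984 and 0.984), all of the mononuclear phagocyte lineage. For Fcgr2b they were Cd300c2, Mpeg1 and Ctss (0.968, 0.963 and 0.963), for Fcgr3 C1qc, Igsf6 and Ctss (0.983, 0.982 and 0.981), and for Fcgr4 Tifab, Clec5a and Ctss (0.976, 0.975 and 0.974). Nearest to Fcer1g were its sister ITAM chain Tyrobp, Trf and Hvcn1 (0.991, 0.979 and 0.962). Slc31a2 was nearest to Mertk (0.967). Gas6 was nearest to Apbb2, Mtus1 and Kitl (0.929, 0.928 and 0.915), and Stab1 to Selenop, Dram2 and Tcn2 (0.942, 0.938 and 0.936). Timd4 was nearest to Fcmr, Cldn1 and Pax5 (0.998, 0.989 and 0.988), on the strength of 1 cluster, which held the dendritic cells and also 30 B or plasma cells. Clusters share libraries and differ mostly by lineage, so these values are a description.

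Anti-CD8 was compared with IgG on counts summed per library and class, by the quasi-likelihood test of edgeR with p-values adjusted over all genes by Benjamini and Hochberg's method. None of the 8 members tested in microglia, Spp1-high phagocytes and macrophages passed an adjusted p of 0.05, nor any of the 5 tested in dendritic cells or the 2 tested in NK cells. Calls were as rare among all genes: 0% of 18074 in microglia, 0% of 15113 in Spp1-high phagocytes, 0% of 12279 in macrophages, 0.0184% of 5421 in dendritic cells and 0.0188% of 5325 in NK cells. The members' count is therefore at the background. At an unadjusted p under 0.05 there were 1673 genes (9.26%) and no member in microglia, and 1150 genes (7.61%) and 3 of the 8 members in Spp1-high phagocytes. Levels in this comparison are CPM scaled by edgeR's TMM factors. The groups did not overlap for 2 of 8 members in microglia, 2 of 8 in Spp1-high phagocytes and 3 of 8 in macrophages. They did not overlap for 2 of 5 in dendritic cells and 2 of 2 in NK cells, the latter 2 higher under Anti-CD8. Of these, NK-cell Fcgr3 was barely apart in unscaled CPM, at 0 and 37.1 under IgG against 45.2 and 37.3 under Anti-CD8. The 0 is that of the 9 cells of IgG 1. With 2 libraries in each group such separation often arises by chance. Its share among all genes is not given here, so no call is drawn from it below.

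In microglia, Fcgr1 was 227 and 175 under IgG, against 176 and 169 under Anti-CD8 (log2 ratio -0.22, SE 0.11, adjusted p = 0.585). IgG 1, the library with most interferon-led cells, was the high one, and the groups overlap. Without IgG 2 the log2 ratio was -0.40 (adjusted p = 0.0281), so the call turns on 1 library, and 1.06% of all genes were called in that fit. Mertk was 273 and 265 under IgG, against 260.4 and 237 under Anti-CD8 (log2 ratio -0.11, SE 0.06, adjusted p = 0.611), with no overlap between groups after TMM scaling. Its unscaled CPM did overlap, at 267 and 259 under IgG against 266.9 and 240.2 under Anti-CD8. The other 6 lay between -0.20 (Gas6) and 0.05 (Fcgr2b). Of the 8, 2 were above 0, and the median was -0.09 beside 0.00 for all genes.

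In Spp1-high phagocytes, Fcgr4 was 19.3 and 18.9 under IgG, against 16.3 and 14.9 under Anti-CD8 (log2 ratio -0.29, SE 0.08, adjusted p = 0.475), with no overlap. Fcgr1 was 117 and 109.6 under IgG, against 104 and 101 under Anti-CD8, also with no overlap (log2 ratio -0.15, SE 0.06, adjusted p = 0.617). Gas6 was 137 and 117 under IgG, against 118 and 92.7 under Anti-CD8 (log2 ratio -0.27, SE 0.11, adjusted p = 0.627), and there the groups overlap. In macrophages the 8 members lay between -0.17 (Mertk) and 0.11 (Fcgr2b), 4 on either side of 0.

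**Figure D4:**
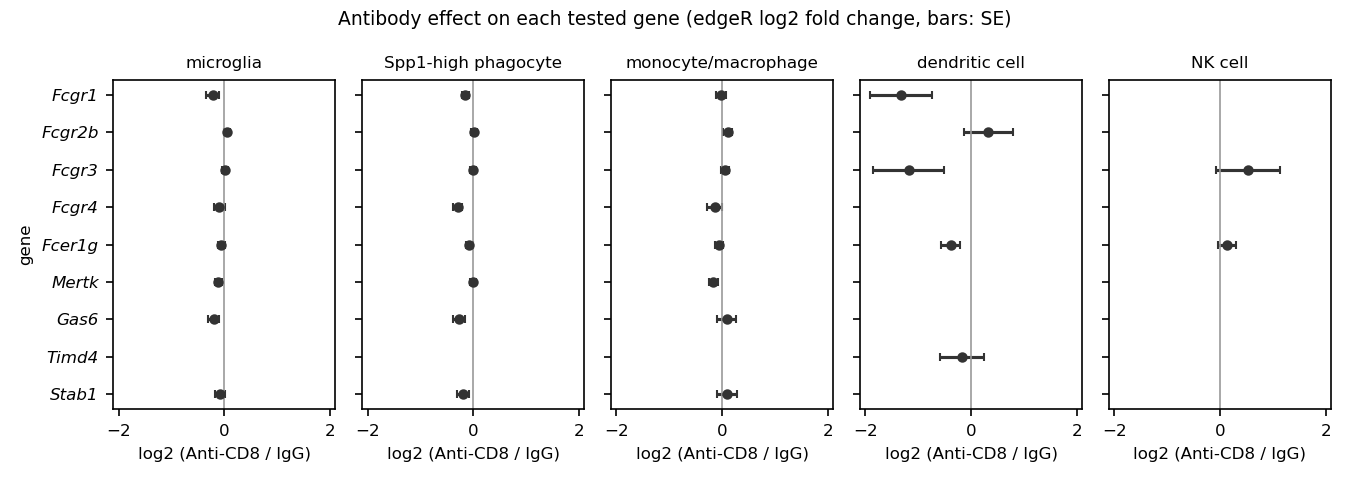
Log2 fold change of Anti-CD8 over IgG for each tested gene in 5 cell classes, with the standard error as bars; the vertical line is no change. Values in microglia, Spp1-high phagocytes and macrophages lie between -0.29 and 0.11, and those in dendritic and NK cells have wider errors.

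In dendritic cells, Fcgr1 was 101 and 26.5 under IgG, against 21.3 and 25.6 under Anti-CD8 (log2 ratio -1.33, SE 0.59, adjusted p = 0.685). The groups did not overlap after TMM scaling. Their unscaled CPM, 95.2 and 24.8 under IgG against 20.4 and 25.2 under Anti-CD8, did overlap. IgG 1 alone was far from the rest, and 13 of its 27 Fcgr1 UMIs lay in 1 of its 17 cells. Without that cell the level in IgG 1 went from 95.2 to 52.7 CPM (not scaled by TMM) and the log2 ratio to -0.74 (adjusted p = 0.8204). The same library was high for Fcgr3 (86.2 and 17.7 under IgG, against 25.1 and 14.7 under Anti-CD8) and for C1qb (352 and 92.7 under IgG, against 157 and 98.9 under Anti-CD8). In IgG 1, 22 of the 23 Fcgr3 UMIs and 10 of the 27 Fcgr1 UMIs lay in the Gda- and Clec4b1-led dendritic cells. Over all libraries these cells held 47 of 59 Fcgr3 and 42 of 70 Fcgr1 UMIs. They were 47.1% of dendritic cells in IgG 1, and 20.7, 26.8 and 28.1% in the other libraries. The part of this makeup in the levels was not tested. Scaled from C1q, free microglial RNA gives 2.31 Fcgr1 and 4.79 Fcgr3 UMIs in IgG 1, and 27 and 23 were seen. With it subtracted, Fcgr1 stood at -1.42 (adjusted p = 0.716), and Fcgr3 did not pass the filter on low counts. Without IgG 2 both receptors passed, Fcgr1 at -2.13 (adjusted p = 0.000268) and Fcgr3 at -2.06 (adjusted p = 0.00182), in a fit that called 1.25% of all genes. Without IgG 2 and the 1 cell, Fcgr1 stood at -1.27 (adjusted p = 0.478) and Fcgr3 at -2.15 (adjusted p = 0.0397), with 0.42% of genes called, so the Fcgr1 call rests on that cell. Without IgG 1, Fcgr3 stood at 0.20 (adjusted p = 0.961). Fcer1g was 776 and 810.3 under IgG, against 614 and 597 under Anti-CD8, with no overlap (log2 ratio -0.39, SE 0.18, adjusted p = 0.692). In NK cells Fcer1g was 1582 and 1560 under IgG, against 1709 and 1743 under Anti-CD8 (log2 ratio 0.14, SE 0.17, adjusted p = 0.952), and in the T cells of the NK cluster 258 and 882 under IgG, against 890.4 and 1640 under Anti-CD8 (log2 ratio 1.06, SE 0.42, adjusted p = 0.947).

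Single clusters gave no call of a member either, beside 0.0754% of all tests summed over the myeloid clusters and 0.0255% over the macrophage subclusters. Over 14 myeloid clusters and 112 member tests, the lowest adjusted p was 0.266, for Fcgr4 in the Atp6v0d2- and Gpnmb-led phagocytes (log2 ratio -0.46, SE 0.11), and 11 of the 112 had an unadjusted p under 0.05, beside 6.71% of all tests. Over 6 macrophage subclusters and 47 tests it was 0.439, for Mertk in the Thbs1- and Cxcl9-led cells (log2 ratio -0.47, SE 0.14), and 3 of the 47 had an unadjusted p under 0.05, beside 4.86% of all tests. A test of the difference in antibody effect between classes, with edgeR, gave no member an adjusted p below 0.994 for macrophages against microglia, or below 0.964 for Spp1-high phagocytes against microglia.

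Related genes were read from lists of the same pathways, none of whose genes was called in microglia, Spp1-high phagocytes, macrophages or dendritic cells. Of 20 ITAM signalling genes, 12 were above and 8 below 0 in microglia, and of 10 inhibitory phosphatases and adaptors 3 were above and 7 below. Of 6 other TAM genes tested there, 2 were above and 4 below 0, and Axl was 239.6 and 242 under IgG, against 196 and 218 under Anti-CD8 (log2 ratio -0.22, SE 0.06, adjusted p = 0.505). Of 23 other receptors and bridges for apoptotic cells 9 were above and 14 below, of 17 engulfment genes 5 and 12, and of 17 oxidase and LC3-associated phagocytosis genes 4 and 13. List medians in microglia ran from -0.08 to 0.03 over these 6 lists, beside 0.00 for all genes.

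Bridging molecules of macrophages varied between libraries. Mfge8 was 272 and 358 under IgG, against 80.7 and 196 under Anti-CD8 (log2 ratio -1.18, SE 0.31, adjusted p = 0.962). The Mfge8-led cells numbered 54 of 276, 60 of 411, 33 of 434 and 85 of 532 macrophages in the 4 libraries. Thbs1, another bridge, was 185 and 202 under IgG, against 278 and 259 under Anti-CD8 (log2 ratio 0.47, SE 0.09, adjusted p = 0.802). In dendritic cells, Axl was 97.4 and 79.5 under IgG, against 41.4 and 32.97 under Anti-CD8 (log2 ratio -1.21, SE 0.32, adjusted p = 0.407) and the scavenger receptor Cd36 14.99 and 17.7 under IgG, against 50.1 and 51.3 under Anti-CD8 (log2 ratio 1.60, SE 0.41, adjusted p = 0.369). Neither pair of groups overlaps. Cd36 is among the leading genes of the Xcr1- and Clec9a-led cells. Their share was 29.4% and 0% of dendritic cells under IgG and 35.7% and 28.1% under Anti-CD8. The part of that share in the Cd36 level was not tested.

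RNA of the IgG heavy chains, which code for the receptors' ligand, was scarce in microglia, where Ighg1 and Ighg2c had none and Ighg2b averaged 0.101 CPM. Other immunoglobulin RNA was highest in 1 library. Igkc, a light chain, was 0.0711 and 0.0307 under IgG, against 82.7 and 0.7901 under Anti-CD8 in microglia, and Ighm, the heavy chain of IgM, 39.9 and 42.6 under IgG, against 89.1 and 35.3 under Anti-CD8. The high library, Anti-CD8 1, also held 25 of the 30 B or plasma cells of the dendritic cluster. Type I interferon genes were below 0 in 13 of 13 in microglia (median -1.34), of which 9 had an unadjusted p under 0.05 and none was called. Ifit3 was 95.7 and 10.3 under IgG, against 10.2 and 12.98 under Anti-CD8, high in IgG 1 alone, as were the cell counts of the interferon-led cluster.

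Neurons gave the only called members. Fcer1g was 117 and 112 under IgG, against 232 and 243 under Anti-CD8 (log2 ratio 1.05, SE 0.15, adjusted p = 0.0153). Fcgr3 was 19.7 and 21.2 under IgG, against 42.7 and 50.8 under Anti-CD8 (log2 ratio 1.19, SE 0.19, adjusted p = 0.0199), and Fcgr1 6.02 and 5.29 under IgG, against 14.5 and 20.8 under Anti-CD8 (log2 ratio 1.65, SE 0.32, adjusted p = 0.0385). Of 13989 genes tested in neurons, 1.29% were called. None of the 3 was called without Anti-CD8 1 (0% of all genes), and only Fcer1g without Anti-CD8 2 (0.563%). The C1q genes moved alongside: their sum in neurons was 745 and 824 CPM under IgG, against 1513 and 1722 CPM under Anti-CD8. Scaled from C1q, free microglial RNA gives 155 Fcgr1, 407 Fcgr3 and 1858 Fcer1g UMIs in neurons, and 139, 406 and 2119 were seen. The gauge takes all C1q in neurons as free microglial RNA, and the part of such RNA in the 3 calls was not tested.

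**Figure D5:**
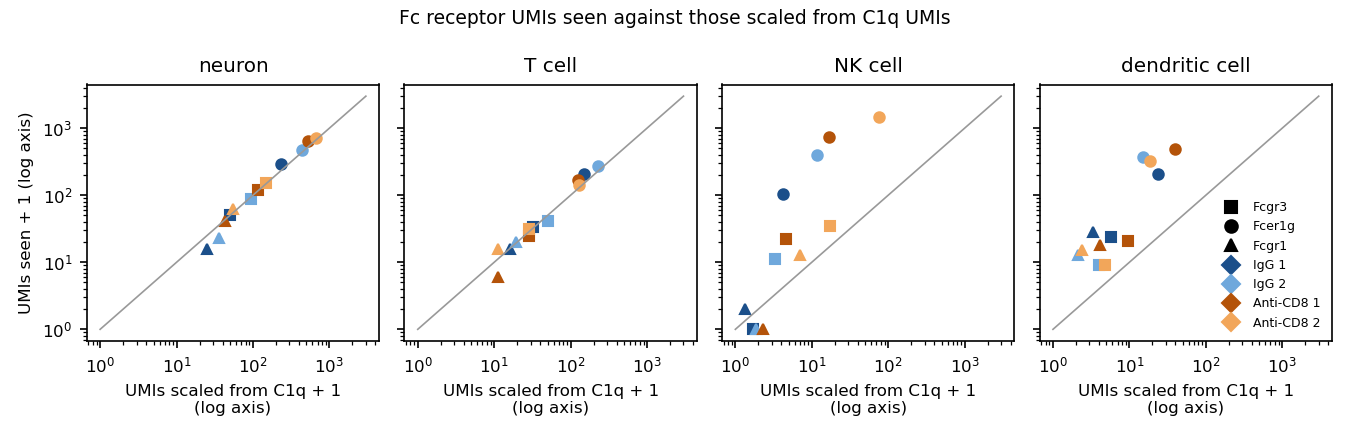
UMIs of Fcgr1, Fcgr3 and Fcer1g seen in neurons, T cells, NK cells and dendritic cells, 1 point per gene and library, against the UMIs that free microglial RNA would give, scaled from C1q (both axes logarithmic, 1 added; the line is equality). Neuron and T-cell points lie near the line, and Fcer1g in NK cells lies above it, with 2679 UMIs seen and 104 from the gauge over the 4 libraries.

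Fcgr2b and Fcgr3 share sequence, so reads could be exchanged between them. Of the 31-base words of Fcgr3 transcripts (GENCODE vM21), 13.4% also occur in Fcgr2b, but 5 of 561 in the last 300 bases do. No other pair of the 4 receptors shared a word.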

How the data were processed

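The authors deposited UMI counts for each gene and barcode, made with Cell Ranger 7.1.0 and build GRCm39 per the submitters' processing notes. Members and gene lists were chosen with earlier results of these data known. Kept barcodes had 300 or more genes and no more than 20% mitochondrial UMIs, and the highest doublet scores were removed (0.8% of a library per 1000 cells). Clusters (29) came from scanpy 1.11.5 and leidenalg 0.10.2 at resolution 1, on 3000 variable genes without the 9 members, and took names from marker lists, while 3588 cells stayed unnamed. Naming thresholds, and gates per cell for NK cells (at most 1 UMI of Cd3e, Cd3d and Trac) and dendritic cells (at most 1 UMI of B-cell genes, C1q under 5000 CPM), were set after seeing the data. Sums of counts per library were tested with edgeR 4.0.16 (quasi-likelihood, TMM, filterByExpr, R 4.3.3) without a replicate block, in classes with 5 or more cells in each library and clusters with 20 or more. Scripts were tested on simulated data. From a list, genes called or else the 2 with the largest change at 10 CPM or more could be named, and members always. Alternatives were DESeq2 1.42.0 and its size factors, no filter, a block, other cell filters and clustering, and leaving out each library. Some results that involve items withheld from the text are not reported here.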

Additional observations from a re-analysis of the deposited data

How the results depend on the processing

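Of 400 alternative values for 38 gene and class results, 357 kept their direction and their side of the threshold. Leaving out 1 library at a time gave 0 to 1 called members in microglia and 0 to 2 in dendritic cells (the highest without IgG 2), and 0 to 3 in neurons, beside 2 to 202, 0 to 280 and 0 to 505 genes called. Microglial Fcgr1 was the 1 member called without a filter on low counts (-0.22, adjusted p = 0.037, edgeR). With a replicate block, Gas6 in Spp1-high phagocytes was the 1 member called outside neurons (-0.27, adjusted p = 0.00491). Same-numbered libraries deviated together with r of only 0.03 in Spp1-high phagocytes and -0.01 in microglia. This r was higher in astrocytes (0.34), the unnamed cluster of 1041 cells (0.20) and pericytes or smooth muscle (0.17), and lowest in fibroblasts (-0.16). The numbers were not taken to pair the libraries. The block put neuron Gas6 at 0.011. The dendritic log2 ratio of activating to inhibitory UMIs was -1.91 with free RNA subtracted and -1.78 without doublet removal. Leaving out the 1 dendritic cell with most Fcgr1 UMIs in IgG 1, chosen after seeing the data, gave -1.48, and leaving out IgG 2 as well called 1 member (Fcgr3) and put Fcgr2b at -0.43 and Timd4 at 0.61.

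Some log2 ratios changed sign, that of Fcgr3 in dendritic cells (-1.18) among them. Leaving out 1 library gave ranges in microglia of -0.23 to 0.053 (Fcgr4), -0.032 to 0.044 (Fcgr3) and -0.24 to 0.061 (Stab1). In Spp1-high phagocytes they were -0.048 to 0.072 (Fcgr2b), -0.051 to 0.033 (Fcgr3) and -0.012 to 0.0033 (Mertk), and in macrophages -0.12 to 0.064 (Fcgr1), -0.20 to 0.36 (Gas6) and -0.28 to 0.40 (Stab1). In dendritic cells they were -0.40 to 1.25 (Fcgr2b), -2.06 to 0.20 (Fcgr3) and -0.64 to 0.70 (Timd4), and in neurons -0.17 to 0.22 (Gas6). Without the interferon-led cluster, microglial Fcgr4 was 0.058. A stricter cell filter gave -0.007 for microglial Fcgr3, and -0.021 for Fcgr2b and 0.013 for Fcgr3 in Spp1-high phagocytes. Clustering at resolution 2 gave 0.0015 for Fcgr3 and -0.067 for Mertk in Spp1-high phagocytes and 0.076 for Fcgr4 in macrophages. Without doublet removal, Mertk was -0.076 in Spp1-high phagocytes and Fcgr3 -0.19 in NK cells. The causes were not tested.

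The number of genes called depended on the fit. Microglia went from 0 to 615 without a filter and 96 with DESeq2, macrophages from 0 to 98 without a filter, and Spp1-high phagocytes from 0 to 252 with the block and 26 with DESeq2. Dendritic cells went from 1 to 98, 38 and 13 in these 3 ways (no filter, block, DESeq2), NK cells from 1 to 14 without a filter, and neurons from 180 to 397 with the block. Leaving out 1 library tests a lone sample on the spread of the other group. Dendritic and NK results rest on as few as 17 and 9 cells in a library.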
